A study of Homo sapiens with 6 samples.

Results

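SR proteins and heterogeneous nuclear ribonucleoproteins (hnRNPs) are the nuclear RNA-binding proteins that help decide which splice sites the spliceosome uses, and their transcripts were examined in a leukaemia line treated with corilagin. The 39 genes described here were taken from the 20036 genes of the expression table by name and level: protein-coding symbols beginning with SRSF or HNRNP, with TRA2A, TRA2B, PTBP1, PTBP3, U2AF1, U2AF2 and SF3B1, and a mean of at least 1 FPKM over the 6 libraries. They comprise 13 SR genes (SRSF1 to SRSF11, TRA2A and TRA2B), 23 hnRNP genes (21 HNRNP genes, PTBP1 and PTBP3) and 3 core factors of 3′ splice site recognition (U2AF1, U2AF2 and SF3B1). The names gave 46 candidates before the level was applied, and 7 fell under it. SRSF12 had 2 to 6 fragments in each library, and HNRNPA1L2, HNRNPCL1, HNRNPCL2, HNRNPCL3, HNRNPCL4 and HNRNPUL2-BSCL2 were listed at 0 throughout.

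MV411 is an established human acute myeloid leukaemia line with a KMT2A fusion and a FLT3 internal tandem duplication. The cells, labelled wild type, received corilagin, a plant tannin, or its solvent DMSO, each for 48 h and each with 3 RNA-seq libraries, numbered here by replicate. The labels used here give no dose, and they do not say whether a group's libraries came from separate cultures; p-values therefore reflect the spread among 3 libraries a group, possibly technical spread alone. Levels are FPKM, fragments per kilobase of gene scaled to the library total, and 17744571 to 21607431 fragments per library could be recovered from them. Of the markers of this line, CD33 (21.2 to 25.0 FPKM), FLT3 (186 to 318 FPKM) and HOXA9 (13.5 to 15.2 FPKM) were present, MPO was at 0.321 to 1.93 FPKM, and the T-cell gene CD3E reached 0.0206 FPKM, while MS4A1 and EPCAM were listed at 0. Among genes of other cells, KRT18 was at 2.05 to 3.25 and PECAM1 at 15.2 to 21.3 FPKM.

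SR proteins join RNA-recognition motifs to a tail rich in arginine and serine. Bound to exonic enhancers, they recruit the U1 snRNP to the 5′ splice site and U2AF to the 3′ splice site, and their phosphorylation by SRPK and CLK kinases sets where they are and what they bind. Many hnRNPs bind silencers and polypyrimidine or G-rich tracts and oppose exon inclusion, so that the balance of both families tunes alternative splicing. Members of both families regulate themselves through poison exons that send their own transcripts to nonsense-mediated decay, and in myeloid malignancies SRSF2, U2AF1 and SF3B1 are recurrently mutated. Levels of total transcript, as measured here, carry no information on which isoform was made or on mutations.

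One feature of the libraries touches all that follows. The third DMSO library stood apart from the first and second by transcript GC content. Over the 1233 genes in the lowest eighth of GC content (32.0 to 40.2%), the mean deviation from each gene's average was 0.21 to 0.28 (log2) in the corilagin libraries, against -0.53 and -0.46 in DMSO replicates 1 and 2 and 0.25 in DMSO replicate 3. Over the eighth with the highest GC content (60.9 to 76.8%), it was -0.15 to -0.10 in the corilagin libraries, against 0.22 in DMSO replicates 1 and 2 and -0.09 in DMSO replicate 3. The splicing factors lie toward the low end of this scale, with a median transcript GC content of 42.6% in the SR genes (40.3 to 50.2%) and 44.1% in the hnRNP genes (37.7 to 59.5%), beside 49.2% over the 9859 tested genes with a value. Results are therefore read from the fit of all 6 libraries and, for most genes and for the counts, also after a smooth GC trend was subtracted from every library and against DMSO replicate 3 alone, where the lone library is assumed to vary like the corilagin ones. Subtracting the trend also removes any effect of corilagin that follows GC content.

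The 4 splicing factors that passed the test carry the comparison, HNRNPAB, SRSF2 and SRSF9, which fell, and PTBP3, which rose. Upstream sequence was at hand for SRSF9, HNRNPAB and PTBP3, and it is shown together with that of HNRNPD, a hnRNP whose transcript was called lower once the GC trend was removed. Each line gives the 250 bases before the RefSeq transcription start (GRCh38.p14), 5′ to 3′ on the gene's strand, at chr12:120469749-120469998 on the minus strand for SRSF9, chr5:178204283-178204532 on the plus strand for HNRNPAB, chr9:112333027-112333276 on the minus strand for PTBP3 and chr4:82373992-82374241 on the minus strand for HNRNPD. The RefSeq starts differ from the GENCODE gene coordinates given elsewhere. GENCODE extends PTBP3 to 112333667 and HNRNPD to 82374503, so both windows lie inside the GENCODE genes. The windows of SRSF9 and HNRNPAB overlap their GENCODE genes in part. Capitals mark matches on either strand to the box CCAAT. They also mark the E-box CACGTG, bound by MYC and related factors. The last motif marked is that of ETS factors, CCGGAAGT.
SRSF9: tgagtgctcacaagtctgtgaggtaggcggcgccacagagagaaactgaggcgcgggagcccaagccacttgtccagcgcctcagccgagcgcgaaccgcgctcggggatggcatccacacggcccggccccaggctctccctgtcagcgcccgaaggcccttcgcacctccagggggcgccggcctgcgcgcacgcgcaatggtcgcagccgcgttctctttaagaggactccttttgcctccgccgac
HNRNPAB: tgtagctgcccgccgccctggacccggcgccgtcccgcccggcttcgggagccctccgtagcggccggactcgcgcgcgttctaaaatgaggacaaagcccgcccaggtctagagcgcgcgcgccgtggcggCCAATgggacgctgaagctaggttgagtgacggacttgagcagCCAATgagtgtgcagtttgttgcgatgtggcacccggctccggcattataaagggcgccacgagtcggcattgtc
PTBP3: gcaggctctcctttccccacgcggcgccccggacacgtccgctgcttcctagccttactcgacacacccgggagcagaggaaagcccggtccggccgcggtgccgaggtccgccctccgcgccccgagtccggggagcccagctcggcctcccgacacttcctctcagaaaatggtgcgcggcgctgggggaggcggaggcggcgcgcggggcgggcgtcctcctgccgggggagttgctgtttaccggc
HNRNPD: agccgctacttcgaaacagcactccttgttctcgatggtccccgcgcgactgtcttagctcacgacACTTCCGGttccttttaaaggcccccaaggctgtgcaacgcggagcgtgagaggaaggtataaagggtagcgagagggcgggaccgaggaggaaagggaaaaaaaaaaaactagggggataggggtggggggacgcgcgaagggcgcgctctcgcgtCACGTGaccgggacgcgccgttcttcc

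HNRNPAB held CCAAT at positions -118 and -75 from its start, HNRNPD held the E-box at -27 and the ETS motif at -184, and the windows of SRSF9 and PTBP3 held none of these letters. RefSeq upstream windows were matched for 35 of the 39 genes. CCAAT was found in 16 of them (45.7%), 2 of 11 SR and 14 of 21 hnRNP genes, and in 34.8% of the 15273 windows of all genes and 35.8% of the 8105 windows of genes tested. The E-box was found in 7 of the 35, which were 6 hnRNP genes (HNRNPA3, HNRNPD, HNRNPDL, HNRNPH2, HNRNPH3 and HNRNPM) and SF3B1, but in none of the 11 SR genes, against 7.84% of all windows and 9.52% of those of genes tested. The ETS motif was found in 4 of the 35 (11.4%; HNRNPD, SRSF4, SRSF5 and U2AF2) and in 5.19% of all windows and 8.41% of those of genes tested, and the 10-letter palindrome bound by NRF1 in 0 of the 35, 1.47% of all windows and 2.18% of those of genes tested. These are matches of letters and were not tested as binding sites.

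In the fit of all 6 libraries (limma on log2(FPKM + 1), adjusted p under 0.05 over 9868 genes), 1 of the 39 splicing factors rose and 3 fell, while 25.4% of all genes tested passed, 11.9% upward and 13.5% downward. The other 35 did not pass. By family, 0 of 13 SR genes rose and 2 fell, 1 of 23 hnRNP genes rose and 1 fell, and none of the 3 core factors passed. At an unadjusted p under 0.05, limma gave 1 SR gene higher and 2 lower, 2 hnRNP genes higher and 5 lower, and 1 core factor higher; limma-voom on the recovered fragments called 0 and 2, 1 and 1, and 0. Leaving out any 1 corilagin library, or DMSO replicate 2, left none of HNRNPAB, SRSF2, SRSF9 and PTBP3 past the threshold (adjusted p from 0.0736 to 0.164). Without DMSO replicate 1 HNRNPAB alone passed, and without DMSO replicate 3 all 4 did. The median log2 change was 0.06 over the SR genes, 0.01 over the hnRNP genes and 0.03 over all genes tested. In bulk RNA, fewer cells of a type and less RNA per cell cannot be told apart, nor, since strand is not stated to have been kept, can a gene and its antisense partner.

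HNRNPAB (ENSG00000197451, chr5:178204507-178211163, plus strand, GRCh38), an RNA-binding protein close to HNRNPD, had 152, 148 and 156 FPKM in the corilagin libraries, against 211, 213 and 187 FPKM in the DMSO libraries. Every corilagin library lay below every DMSO library. The mean ratio was 0.745, and the log2 change of -0.42 (SE 0.080) had an adjusted p of 0.0144 (limma). Its transcript has a GC content of 53.9%, and it stayed lower with the GC trend removed (-0.25, adjusted p = 0.00375) and against DMSO replicate 3 alone (-0.30, adjusted p = 0.000479). SRSF2 (ENSG00000161547, chr17:76734115-76737374, minus strand), which activates exons from C- and G-rich enhancers, had 68.4, 71.0 and 69.9 FPKM in the corilagin libraries, against 85.7, 83.2 and 85.7 FPKM in the DMSO libraries. SRSF9 (ENSG00000111786, chr12:120461668-120469793, minus strand), a short-tailed SR protein related to SRSF1, had 22.4, 21.8 and 22.9 FPKM in the corilagin libraries, against 27.4, 27.9 and 26.6 FPKM in the DMSO libraries. In both genes the groups did not overlap and the 3 DMSO libraries were close to each other, so that DMSO replicate 3 did not stand apart for them. SRSF2 fell by 0.28 on the log2 scale (SE 0.067, adjusted p = 0.0275) and SRSF9 fell by 0.28 (SE 0.072, adjusted p = 0.0329). With the GC trend removed the changes were -0.18 (adjusted p = 0.0400) and -0.27 (adjusted p = 0.00111), and against DMSO replicate 3 alone -0.29 and -0.24. Exons of genes on the opposite strand, most of them of MFSD11, cover 36.7% of the exonic bases of SRSF2, and exons of GATC cover 46.2% of those of SRSF9. MFSD11 had 3.45, 3.50 and 3.87 FPKM with corilagin and 2.93, 2.73 and 2.71 FPKM with DMSO. It was itself called higher (log2 change 0.28, adjusted p = 0.0410, limma). GATC had 4.06, 3.81 and 3.74 FPKM with corilagin and 4.46, 4.49 and 4.39 FPKM with DMSO (-0.16, adjusted p = 0.132, limma). Both were low beside the SR genes they overlap. Exons of PHYKPL, on the opposite strand, cover 9.1% of the exonic bases of HNRNPAB. PHYKPL was not called (-0.13, adjusted p = 0.247, limma). What such overlap adds to the levels was not tested. With FPKM rescaled to equal sums per library, the calls of SRSF2 (adjusted p = 0.104) and SRSF9 (adjusted p = 0.0914) ended, while HNRNPAB kept its call (adjusted p = 0.0145).

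PTBP3 (ENSG00000119314, chr9:112217716-112333667, minus strand), a polypyrimidine-tract-binding paralog of PTBP1 found in blood cells, had 111, 109.9 and 106 FPKM in the corilagin libraries, against 55.6, 57.2 and 97.8 FPKM in the DMSO libraries. The groups did not overlap, but DMSO replicate 3 lay much nearer to the corilagin libraries than to the other DMSO libraries. The mean ratio was 1.56 and the log2 change 0.68 (SE 0.206), with an adjusted p of 0.04995, just inside the threshold (adjusted p = 0.0567 with equal sums). Its transcript has the lowest GC content of the 39 (37.7%). The change was 0.22 (adjusted p = 0.00670) with the GC trend removed, 0.16 (adjusted p = 0.0183) against DMSO replicate 3 alone and 0.94 without that library. PTBP1, which binds the same tracts and represses exons, had 88.1, 88.7 and 86.6 FPKM in the corilagin libraries, against 125, 119.7 and 88.5 FPKM in the DMSO libraries, a log2 change of -0.32 (adjusted p = 0.105). DMSO replicate 3 lay within the corilagin range for PTBP1, and the change was -0.081 with the GC trend removed, where it was not called.

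**Figure D1:**
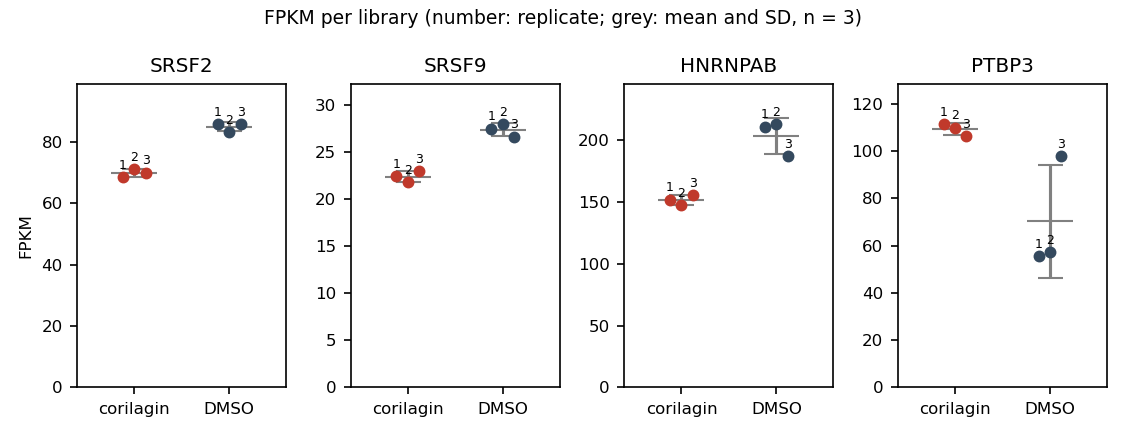
FPKM of the 4 splicing factors that passed the test, one panel per gene, with corilagin left and DMSO right; each number is a replicate, and grey marks are the mean and SD (n = 3). HNRNPAB, SRSF2 and SRSF9 are lower in all corilagin libraries, while DMSO replicate 3 of PTBP3 (97.8 FPKM) sits near the corilagin values.

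The 39 genes divided along GC content as the libraries did. Across the 39 genes, Spearman's rho between transcript GC content and the log2 difference was -0.73 for corilagin minus DMSO replicates 1 and 2, 0.05 for corilagin minus DMSO replicate 3 and -0.78 for DMSO replicate 3 minus DMSO replicates 1 and 2. The 3 differences share libraries and are given as a description. Of the 39, 25 were higher in the corilagin mean than in the mean of DMSO replicates 1 and 2, but 10 were higher, and 29 lower, than in DMSO replicate 3. In all, 5 genes had every corilagin value above every DMSO value and 9 had every one below, beside 48.3% of all genes tested (25.0% above and 23.3% below).

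**Figure D2:**
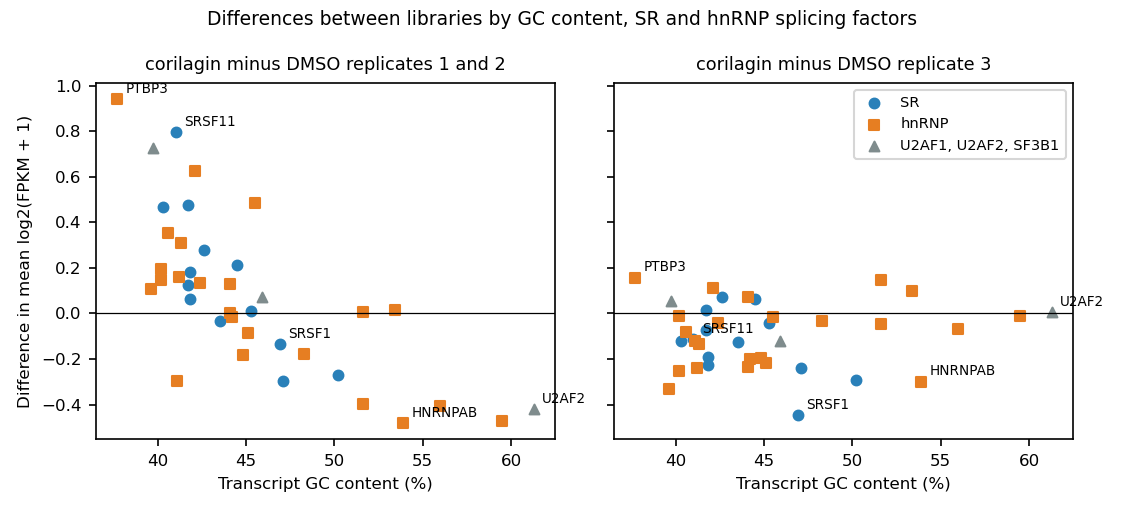
Difference in mean log2(FPKM + 1) against transcript GC content (%) for the 39 splicing factors, corilagin minus DMSO replicates 1 and 2 in one panel and corilagin minus DMSO replicate 3 in the other. The slope seen against DMSO replicates 1 and 2 (rho = -0.73) is not seen against DMSO replicate 3 (rho = 0.05).

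Among the SR genes, levels ran over more than an order of magnitude, with SRSF8, a retrogene-derived SR protein, the lowest and SRSF2 the highest by mean. SRSF8 had 4.51, 4.15 and 4.80 FPKM with corilagin and 4.57, 4.64 and 4.98 FPKM with DMSO, with overlapping groups. With the GC trend removed, where 46.4% of all genes tested passed (27.4% upward, 19.0% downward), 0 of 13 SR genes were higher and 6 lower: SRSF2, SRSF3, SRSF7, SRSF8, SRSF9 and TRA2B. Against DMSO replicate 3 alone, where 38.0% passed (19.4% upward, 18.6% downward), 0 were higher and 5 lower: SRSF1, SRSF2, SRSF7, SRSF9 and TRA2B. The SR medians were -0.18 and -0.12 in these fits, which share all corilagin libraries and DMSO replicate 3.

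SRSF1, the founding SR protein, which promotes exon inclusion and is an oncogene when overproduced, had 16.7, 17.5 and 18.1 FPKM in the corilagin libraries, against 19.7, 18.8 and 24.1 FPKM in the DMSO libraries. All corilagin values lay below all DMSO values, and DMSO replicate 3 was the highest. Its log2 change was -0.24 (adjusted p = 0.124) with all libraries, -0.24 (adjusted p = 0.0585) with the GC trend removed and -0.45 (adjusted p = 0.000238) against DMSO replicate 3; 56.2% of the 100-base windows of its longest coding transcript also occur in AC015813.2, which overlaps it on the same strand, so its level is uncertain. SRSF7, an SR protein with a zinc knuckle that also takes part in mRNA export, had 55.5, 54.5 and 56.3 FPKM in the corilagin libraries, against 52.9, 53.3 and 65.0 FPKM in the DMSO libraries. The groups overlapped, with DMSO replicates 1 and 2 just under and DMSO replicate 3 above the corilagin values; the change was -0.034 with all libraries, -0.30 with the GC trend removed and -0.23 against DMSO replicate 3. TRA2B, which binds GAA-rich enhancers, had 36.2, 38.3 and 38.8 FPKM in the corilagin libraries, against 31.7, 34.7 and 43.3 FPKM in the DMSO libraries. The same order was seen, and its change was 0.058, -0.20 and -0.19 in those fits. SRSF3, a small SR protein that couples splicing to export, had 65.3, 69.7 and 72.0 FPKM in the corilagin libraries, against 62.5, 63.8 and 72.7 FPKM in the DMSO libraries. It overlapped between groups and differed among the fits in sign, at 0.058, -0.21 (called) and -0.075.

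The other SR genes passed in none of these fits. SRSF11, an SR protein also known as p54, had 47.3, 50.2 and 49.3 FPKM in the corilagin libraries, against 26.3, 29.3 and 52.9 FPKM in the DMSO libraries. DMSO replicate 3 had the highest value of all, and the log2 change was 0.49 (adjusted p = 0.145), 0.80 without that library and -0.11 against it alone. SRSF10, an SR protein that represses splicing when dephosphorylated, had a change of 0.27 with all libraries and -0.12 against DMSO replicate 3, and TRA2A, the paralog of TRA2B, of 0.32 and 0.017. SRSF5 and SRSF6, both activators of exon inclusion, were above every DMSO library without passing, at 0.16 (adjusted p = 0.139) and 0.21 (adjusted p = 0.109), and with the GC trend removed at 0.043 and -0.0091. SRSF4 was at -0.0079, the smallest change of the family.

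The hnRNP genes included the most abundant of the 39, HNRNPA1, a silencer-binding repressor of exons, with 270.1, 279.6 and 291 FPKM in the corilagin libraries, against 273, 294 and 322 FPKM in the DMSO libraries. The lowest was HNRNPA1L3, with 4.95, 5.55 and 5.57 FPKM with corilagin and 5.92, 5.57 and 6.37 FPKM with DMSO; these genes share sequence (33.4% of the 100-base windows of HNRNPA1L3 and 25.3% of those of HNRNPA1 occur in other genes), so both levels are uncertain. With the GC trend removed, 4 of 23 hnRNP genes were higher and 12 lower, with a median of -0.13; against DMSO replicate 3 alone 1 was higher and 7 lower, with a median of -0.07. Over all 39 genes these fits gave 5 higher and 18 lower, with a median of -0.13 beside 0.05 over all genes, and 1 higher and 12 lower. Counted without DMSO replicate 3, where 77.3% of all genes passed (40.8% upward, 36.5% downward), 19 of the 39 were higher and 11 lower, with 7 higher and 3 lower among the SR genes and 11 higher and 7 lower among the hnRNP genes. The direction of the majority thus depended on which DMSO libraries were used.

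Among the A/B type hnRNPs, which bind AG-rich silencers, HNRNPA2B1 had 93.1, 98.0 and 104 FPKM in the corilagin libraries, against 85.3, 90.4 and 116 FPKM in the DMSO libraries. HNRNPA3 had 40.5, 41.6 and 44.2 FPKM in the corilagin libraries, against 37.3, 38.4 and 50.3 FPKM in the DMSO libraries. In both, DMSO replicate 3 was the highest library and DMSO replicate 1 the lowest, so that the groups overlapped. Their changes were 0.028 and 0.015 with all libraries but -0.27 and -0.33 with the GC trend removed, and -0.24 and -0.25 against DMSO replicate 3, called lower in both of these fits. HNRNPA1 was at -0.077, -0.21 and -0.20 in the same order of fits, and was called lower with the GC trend removed and against DMSO replicate 3. For HNRNPA1L3 the groups met at 5.57 FPKM without overlapping, and the change was -0.13 (adjusted p = 0.274), called lower with the GC trend removed (-0.22). HNRNPA0, which binds AU-rich elements, had 27.5, 27.4 and 28.3 FPKM in the corilagin libraries, against 35.0, 33.6 and 30.2 FPKM in the DMSO libraries. Every corilagin value was below every DMSO value; the change was -0.24 (adjusted p = 0.0681), and -0.54 (adjusted p = 0.0260) with the GC trend removed, the largest of the 39 in that fit.

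HNRNPD, the AU-rich element-binding protein AUF1 that promotes mRNA decay, had 84.1, 88.4 and 88.1 FPKM in the corilagin libraries, against 98.2, 99.5 and 99.5 FPKM in the DMSO libraries. The groups did not overlap, and the DMSO libraries were close to each other. The change was -0.19 (adjusted p = 0.0736), -0.29 (adjusted p = 0.00237) with the GC trend removed and -0.19 (adjusted p = 0.00783) against DMSO replicate 3. Its relative HNRNPDL had 76.1, 82.1 and 80.6 FPKM in the corilagin libraries, against 69.4, 75.9 and 93.9 FPKM in the DMSO libraries, overlapping, and passed only against DMSO replicate 3 (-0.24) among these 3 fits. HNRNPU, a large nuclear scaffold protein that binds chromatin and RNA, had 52.6, 52.9 and 54.3 FPKM in the corilagin libraries, against 47.5, 51.3 and 67.3 FPKM in the DMSO libraries. DMSO replicate 3 stood above all other libraries. The change was -0.039 with all libraries, -0.41 with the GC trend removed and -0.33 against DMSO replicate 3. HNRNPUL1, a related protein with roles at DNA breaks, had 98.9, 99.1 and 95.8 FPKM in the corilagin libraries, against 131, 129.6 and 103 FPKM in the DMSO libraries. It did not overlap, at -0.29 (adjusted p = 0.0767), and was -0.096 (adjusted p = 0.0484) with the GC trend removed. HNRNPUL2 had 24.7, 24.0 and 25.8 FPKM with corilagin and 25.4, 24.0 and 22.3 FPKM with DMSO, overlapping, and was called higher with the trend removed (0.18); 44.7% of its 100-base windows are shared with the readthrough gene HNRNPUL2-BSCL2, which was listed at 0.

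Of the hnRNPs that bind G tracts, HNRNPH2 had 37.1, 37.0 and 40.6 FPKM in the corilagin libraries, against 25.2, 23.7 and 35.2 FPKM in the DMSO libraries. Every corilagin value was above every DMSO value, and the change was 0.45 (adjusted p = 0.0604), 0.21 (adjusted p = 0.0233) with the GC trend removed and 0.11 against DMSO replicate 3. HNRNPH3 had 25.6, 25.7 and 26.5 FPKM with corilagin and 19.8, 20.5 and 27.5 FPKM with DMSO, overlapping, and its change was 0.21, -0.12 (called) and -0.081. HNRNPH1 and HNRNPF passed in none of these fits, at 0.32 and -0.13 with all libraries, 0.25 and -0.085 with the GC trend removed, and -0.017 and -0.034 against DMSO replicate 3. HNRNPM, which binds GU-rich sequence, had 60.9, 62.5 and 64.6 FPKM with corilagin and 61.4, 62.7 and 58.4 FPKM with DMSO, overlapping, and was called higher with the trend removed (0.21). HNRNPK, which binds C-rich RNA, had 159, 161 and 169 FPKM with corilagin and 146, 152 and 168 FPKM with DMSO, and HNRNPR, a relative of the RNA-binding protein SYNCRIP, had 36.6, 37.2 and 39.4 FPKM with corilagin and 28.6, 32.0 and 41.4 FPKM with DMSO. Both overlapped between groups and were called lower with the trend removed (-0.16 and -0.13). HNRNPC, which covers uridine tracts, HNRNPL, which binds CA repeats, and HNRNPLL, its paralog, passed in none of these fits, with changes of 0.026, -0.28 and 0.13 with all libraries, -0.11, -0.15 and -0.22 with the GC trend removed, and 0.073, -0.046 and -0.012 against DMSO replicate 3.

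**Figure D3:**
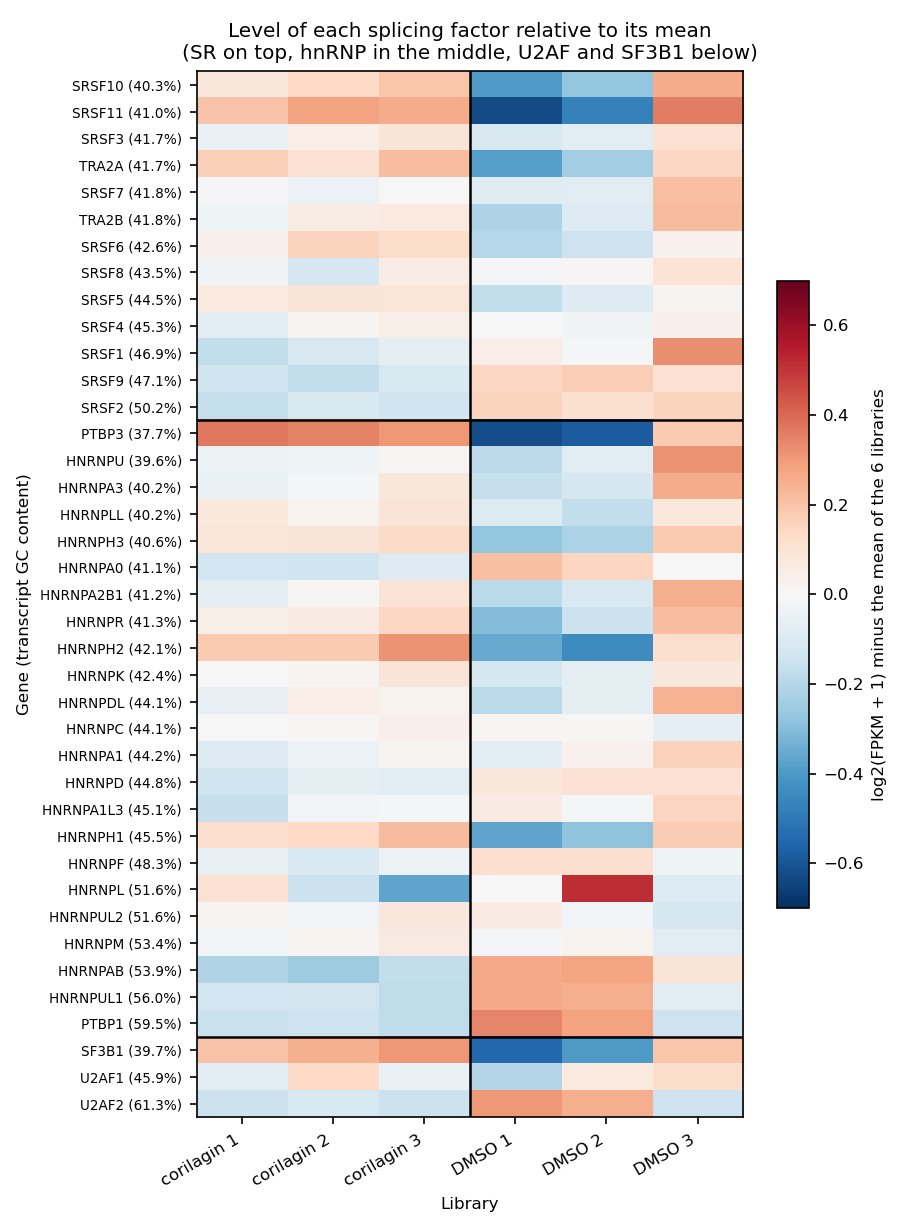
Level of each splicing factor in each library as log2(FPKM + 1) minus its mean over the 6 libraries, with corilagin left and DMSO right, SR genes on top, hnRNP genes in the middle and the core factors below, each ordered by transcript GC content (%). Most genes of low GC content (HNRNPA0 apart) are blue in DMSO replicates 1 and 2 and mostly red in DMSO replicate 3, while SRSF2, SRSF9, HNRNPD and HNRNPAB are low in all corilagin libraries and above their mean in all DMSO libraries.

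**Figure D4:**
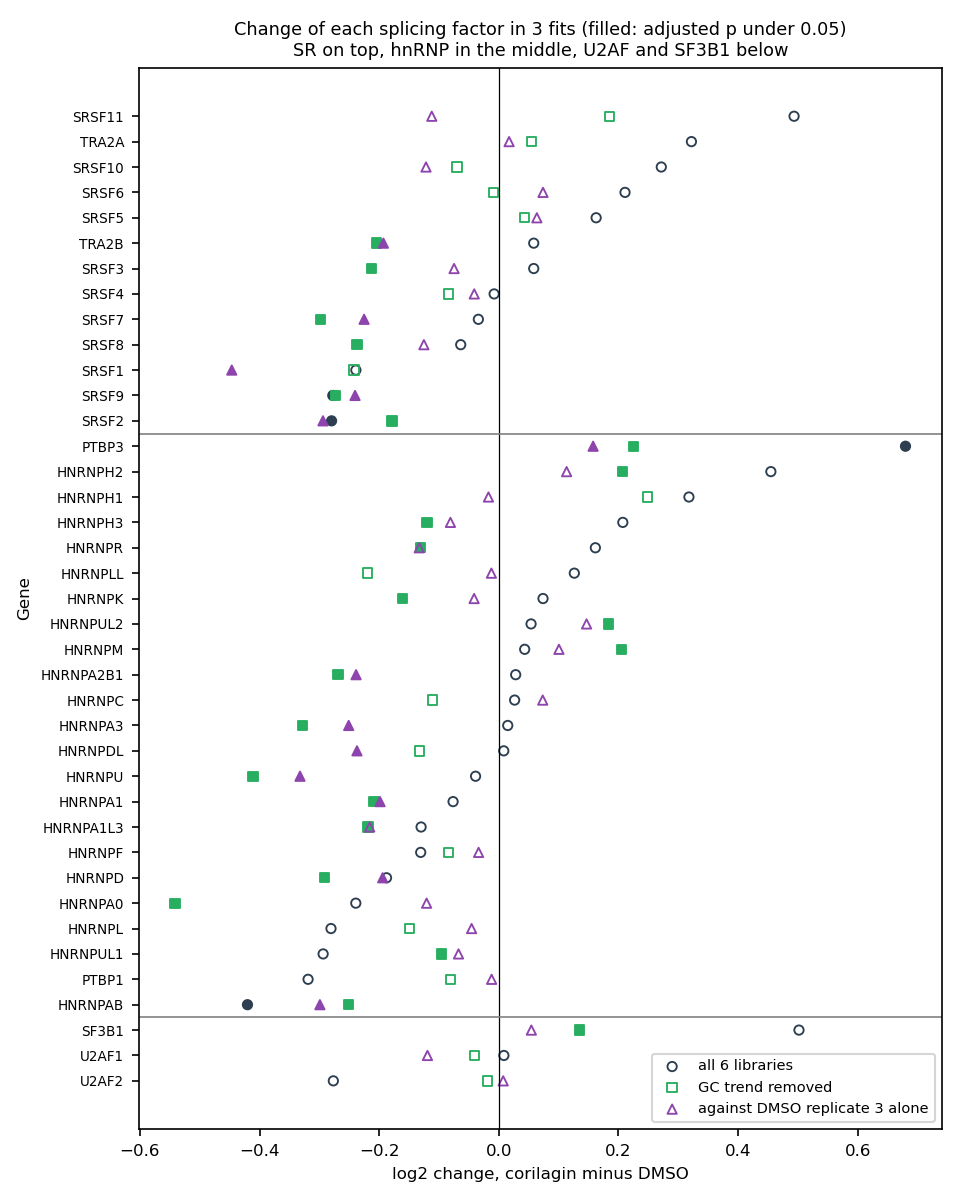
log2 change of each splicing factor (corilagin minus DMSO) in the fit of all 6 libraries, with the GC trend removed and against DMSO replicate 3 alone; filled symbols have an adjusted p under 0.05. HNRNPAB, SRSF2, SRSF9 and PTBP3 are filled in the 3 fits, and HNRNPU moves between -0.04 and -0.41.

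The core factors of 3′ splice site recognition did not pass in the fit of all libraries; SF3B1 was called higher with the GC trend removed, and without DMSO replicate 3 SF3B1 was called higher and U2AF2 lower. SF3B1, the U2 snRNP subunit that grips the branch site, had 58.1, 60.1 and 62.4 FPKM in the corilagin libraries, against 34.1, 38.1 and 57.9 FPKM in the DMSO libraries. All corilagin values were above all DMSO values, with DMSO replicate 3 just under them; the change was 0.50 (adjusted p = 0.0785), 0.13 (adjusted p = 0.0468) with the GC trend removed and 0.054 (adjusted p = 0.437) against DMSO replicate 3. U2AF2, the large U2AF subunit, which binds the polypyrimidine tract, had 115, 118 and 115 FPKM in the corilagin libraries, against 158, 153 and 115 FPKM in the DMSO libraries. DMSO replicate 3 lay within the corilagin range, and the change was -0.28 (adjusted p = 0.125), -0.019 with the GC trend removed and 0.0073 against DMSO replicate 3. U2AF1, the small subunit, which reads the AG at the exon's edge, had 1.78, 2.24 and 1.84 FPKM in the corilagin libraries, against 1.55, 2.08 and 2.20 FPKM in the DMSO libraries, overlapping. Of the 100-base windows of its transcript, 87.3% also occur in other genes, most of them in the near-identical copy U2AF1L5, so this low level is uncertain and no direction is drawn from it.

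Set against each other over all 6 libraries, the families did not separate. The summed level of the 13 SR genes was 523, 541 and 548 FPKM in the corilagin libraries, against 480.0, 494 and 585 FPKM in the DMSO libraries (537 ± 13.0 and 519.8 ± 57.1, SD, n = 3 each). The summed level of the 23 hnRNP genes was 1886, 1901 and 1949.9 FPKM in the corilagin libraries, against 1904, 1969 and 2051 FPKM in the DMSO libraries (1912 ± 33.4 and 1975 ± 73.7). Both sums overlapped between groups, and DMSO replicate 3 had the highest of each. Total FPKM was 233932, 236861 and 233342 in the corilagin libraries, against 266660, 260759 and 239068 in the DMSO libraries. As a share of that total, the hnRNP sum was 0.815 ± 0.018% with corilagin and 0.776 ± 0.074% with DMSO, so its direction turned. The SR share was 0.229 ± 0.0058% with corilagin and 0.205 ± 0.035% with DMSO. Both shares overlapped between groups as well. The mean log2 level of the SR genes minus that of the hnRNP genes was -0.82 ± 0.018 with corilagin and -0.87 ± 0.084 with DMSO. This difference of 0.048 is under the between-replicate SD of 0.060. By library the values were -0.839, -0.811 and -0.804 with corilagin, against -0.918, -0.911 and -0.770 in DMSO replicates 1, 2 and 3. All corilagin values thus lay above DMSO replicates 1 and 2 and below DMSO replicate 3, so the overlap rests on that library. The difference was 0.0017 with the GC trend removed and -0.048 against DMSO replicate 3. Values of a score over chosen genes were not tested.

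**Figure D5:**
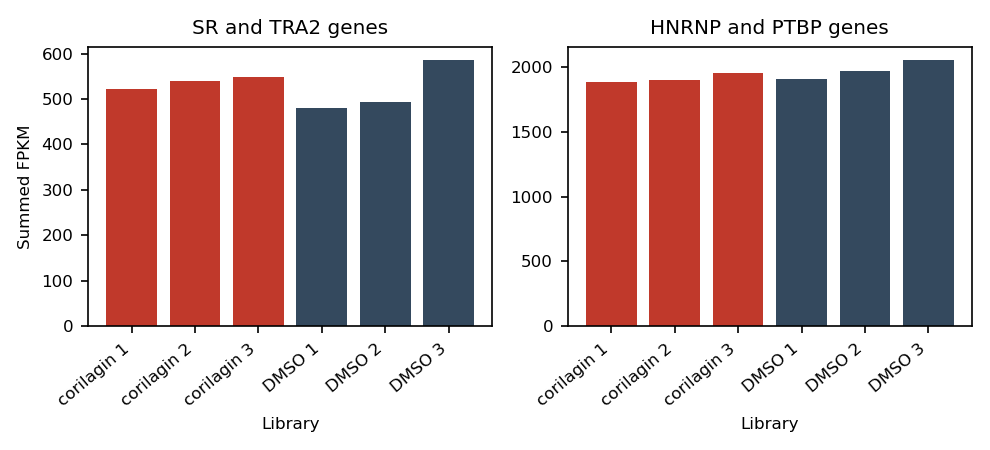
Summed FPKM of the 13 SR and TRA2 genes and of the 23 HNRNP and PTBP genes in each library, corilagin in red and left of DMSO in dark blue. DMSO replicate 3 has the highest sum of both families (585 and 2051 FPKM), and the corilagin sums lie within the DMSO range for the SR genes.

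The annotation (GENCODE release 29) lists a transcript marked for nonsense-mediated decay for 13 of 13 SR genes, 14 of 23 hnRNP genes (60.9%) and 3 of 3 core factors, beside 45.0% of 9852 protein-coding genes tested. The expression table sums all transcripts of a gene, so such forms were not measured apart.

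The wider splicing machinery was read from 8 lists of 159 genes, of which 153 were tested. In the fit of all libraries 12 rose and 22 fell (34 of 153, beside the 25.4% of all genes), with 28 of the 34 keeping their call with the GC trend removed and 33 against DMSO replicate 3 alone. Without DMSO replicate 3, 69 were higher and 57 lower, beside 40.8% and 36.5% of all genes tested. Without any other library 0 to 4 were higher and 1 to 3 lower, beside 1.33% to 3.74% and 1.78% to 4.89% of all genes. The counts per list are to be read beside 11.9% of all genes higher and 13.5% lower in the fit of all libraries. With the GC trend removed, the shares were 27.4% higher and 19.0% lower. Of 15 genes for the kinases, phosphatase and importer of SR proteins, 4 rose and 2 fell, with 6 higher and 1 lower once the GC trend was removed and 4 higher and 3 lower against DMSO replicate 3. CLK1, a kinase that phosphorylates SR proteins in the nucleus, had 19.0, 20.5 and 18.6 FPKM in the corilagin libraries, against 9.06, 10.5 and 13.6 FPKM in the DMSO libraries. Every corilagin value was above every DMSO value, with a mean ratio of 1.75 and a log2 change of 0.77 (adjusted p = 0.0128, limma), which was 0.34 (adjusted p = 0.0110) with the GC trend removed and 0.48 (adjusted p = 0.000241) against DMSO replicate 3. Without any 1 corilagin library, or DMSO replicate 2, the adjusted p of CLK1 was 0.0591 to 0.0695. The others that rose, named after their values were seen, were CLK4 (0.71), SRPK3 (0.60) and DYRK1A (0.46), each with a mean under 5 FPKM and also called higher in both other fits. CLK2, a further SR kinase, fell to 14.3 ± 0.447 FPKM with corilagin against 18.0 ± 1.27 FPKM with DMSO (log2 -0.31, adjusted p = 0.0367, limma). Its change was -0.14 with the GC trend removed, where it was not called, and -0.21 against DMSO replicate 3. The other that fell was DYRK1B (-0.31). It was at -0.030 (adjusted p = 0.764, limma) with the GC trend removed and -0.20 against DMSO replicate 3, called in neither fit.

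Of 15 Sm and LSm proteins, the rings around spliceosomal RNAs, 0 rose and 5 fell, with a median log2 change of -0.23. With the GC trend removed 2 were higher and 9 lower, and against DMSO replicate 3 alone 2 were higher and 8 lower. SNRPF, an Sm ring subunit, averaged 20.3 ± 0.298 FPKM with corilagin and 32.7 ± 2.22 FPKM with DMSO (SD, n = 3 each), a log2 change of -0.66 (adjusted p = 0.00400), and LSM2, a subunit of the LSm ring, averaged 46.8 ± 2.82 FPKM with corilagin and 68.1 ± 11.3 FPKM with DMSO, a change of -0.52 (adjusted p = 0.0315). Of 19 genes of the U1 and U2 snRNPs and 3′ splice site recognition, 0 rose and 3 fell, a share near the 13.5% of all genes called lower, with 0 higher and 9 lower once the GC trend was removed and 0 higher and 8 lower against DMSO replicate 3. Those that fell were led by SF3B5 (117 ± 8.41 FPKM with corilagin and 175 ± 25.5 FPKM with DMSO; -0.57) and SF3B3 (26.5 ± 0.168 FPKM with corilagin and 39.0 ± 5.33 FPKM with DMSO; -0.53), partners of SF3B1 in the SF3b complex; the other was SNRPC (-0.41), of the U1 snRNP. Of 28 genes of the tri-snRNP and catalytic spliceosome, 3 rose and 4 fell, with 6 higher and 6 lower once the GC trend was removed and 5 higher and 5 lower against DMSO replicate 3. SLU7 and SYF2, second-step and Prp19-associated factors, rose by 0.78 and 0.53, and PRPF8, the central scaffold of the spliceosome, and USP39, a tri-snRNP protein, fell by 0.43 and 0.34. Each of these snRNP and spliceosome genes named with a value kept its call and direction in both other fits. Those fits reuse all corilagin libraries and DMSO replicate 3, so they are no independent check.

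Of 18 hnRNP-class proteins under other symbols, 0 rose and 4 fell, led by DAZAP1 (29.5 ± 0.720 FPKM with corilagin and 40.2 ± 4.06 FPKM with DMSO; log2 -0.43) and ELAVL1 (30.9 ± 0.284 FPKM with corilagin and 41.8 ± 6.14 FPKM with DMSO; -0.42), which stabilises AU-rich mRNAs. All 4 were also called lower with the GC trend removed, but that fit called 6 of the list higher and 6 lower, and the fit against DMSO replicate 3 called 4 higher and 7 lower. Of 24 SR-related proteins, 2 rose and 2 fell. Those that rose were LUC7L2 (0.51), a U1 snRNP partner, and ARGLU1 (0.44). Those that fell were LUC7L (-0.31) and SNRNP70 (-0.30), the U1 70K protein. Against DMSO replicate 3 alone their changes were 0.27, 0.16, -0.39 and -0.14, in the same order. Only LUC7L2 among them was called with the GC trend removed. That fit called 4 of the list higher and 1 lower, and the fit against DMSO replicate 3 called 3 higher and 3 lower. Of 18 genes of nonsense-mediated decay and the exon junction complex, 0 rose and 2 fell, RNPS1 (-0.33) and EIF4A3 (-0.26), both of the exon junction complex. The balance turned with the GC trend removed, to 5 higher and 3 lower, and was 2 higher and 5 lower against DMSO replicate 3. In the lists with a count of 0, an unadjusted p under 0.05 was reached upward by 1 of the Sm and LSm genes, 0 of the U1 and U2 genes, 3 of the hnRNP-class genes and 4 of the decay genes, and limma-voom called 0, 0, 1 and 0 higher. Of 16 other regulators, 3 rose and 0 fell: PSPC1 (0.45), a paraspeckle protein, SFPQ (0.29), its partner, and HEXIM1 (0.39), which is known as an inhibitor of the transcription kinase P-TEFb rather than as a splicing factor; none was lower at an unadjusted p under 0.05. PSPC1 and HEXIM1 kept their call with the GC trend removed, and SFPQ did not. That fit called 6 of the list higher and 0 lower, and the fit against DMSO replicate 3 called 5 higher and 1 lower.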

How the data were processed

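Poly(A) RNA from MV411 cells was made into libraries from 3 micrograms of total RNA with 15 PCR cycles and read as 150-base pairs, per the labels' protocols. The submitters' processing notes name fastp 0.22.0, HISAT2 2.1.0, HTSeq 0.9.1, DESeq 1.38.3 and GRCh38. The deposited table gives FPKM for 20036 Ensembl genes in 6 libraries. FPKM shifts with a few abundant genes and with reads shared between copies. Symbols were found for 20011 genes and coordinates for 19852 in GENCODE release 29 (GRCh38); GC content is that of the transcripts there.

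The 9868 genes whose mean reached 1 FPKM were tested with limma 3.58.1 in R 4.3.3 (trend, 2-sided) on log2(FPKM + 1), a scale that understates changes of low genes, with Benjamini-Hochberg adjustment over all of them and a threshold of 0.05. The GC trend was a natural spline with 5 degrees of freedom, fitted in each library to deviations from the gene means, with the library mean kept. Fragments were recovered from the steps of the deposited FPKM for all 15921 genes above 0 (tolerance 0.01), and used in a limma-voom alternative. The method was also run on simulated data. Their outcome is not used here, as their main setting held no DMSO library that stood apart.

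The genes, the 8 lists, the alternatives and the naming rule were all chosen with earlier results of these data known. Named were genes past the threshold, the core factors, those whose call differed with the GC trend removed or against DMSO replicate 3 alone, the highest and lowest of each family, and up to 2 rises and 2 falls per list with a mean of at least 5 FPKM; others named were chosen after their values were seen. Upstream sequences are from RefSeq (GRCh38.p14). Protein sequences were not used here, and values of 3 other genes are not reported here.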

Additional observations from a re-analysis of the deposited data

How the results depend on the processing

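No call among the 39 genes held in every alternative. Leaving out any corilagin library, or DMSO replicate 2, left no gene of the 39 called, and leaving out DMSO replicate 1 left HNRNPAB; leaving out DMSO replicate 3 gave 30 calls. Over these 6 fits the SR genes called were 0 to 7 higher and 0 to 3 lower (0 and 2 with all libraries), the hnRNP genes 0 to 11 higher and 0 to 7 lower (1 and 1), and the pathway genes 0 to 69 higher and 1 to 57 lower (12 and 22). Over all genes tested, the shares in these fits ran from 1.33% to 40.8% higher and from 1.78% to 36.5% lower. The cause of these differences between fits was not tested beyond the GC values given above.

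The SR genes called lower numbered 0 with FPKM rescaled to equal sums, 1 with quantile normalization (which also called 1 higher), 6 with the GC trend removed, 8 with the library mean also removed (chosen after seeing the data) and 5 against DMSO replicate 3. The hnRNP genes called higher numbered 0 with pseudocounts of 0.1 or 0.5, with no filter, with a mean of at least 5 FPKM, with equal sums and with median-of-ratios factors, all of which put PTBP3 just outside the threshold (adjusted p from 0.0508 to 0.0870), 4 with the GC trend removed and 3 with the library mean also removed. The hnRNP genes called lower numbered 12, 13 and 7 in the GC-trend, GC-and-mean and DMSO replicate 3 fits. The pathway genes called were 35 higher and 35 lower, 30 and 45, and 25 and 40 in those fits, 22 and 12 with equal sums, and 14 lower with no filter. Limma-voom on fragments left these counts within 1.5 times. The SR minus hnRNP mean was -0.048 against DMSO replicate 3.

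Equal sums moved the median log2 change of all genes from 0.03 to 0.14 and gave 1620 genes higher and 1059 lower, where the fit of all libraries gave 1171 and 1331.

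The labels used here do not say whether replicate numbers pair the libraries, and the fit of all libraries used no pairing. Deviations of same-numbered libraries correlated at 0.28, 0.08 and 0.34, and each corilagin library correlated best with its own number. The margin was small for corilagin replicate 1 (0.279 with DMSO replicate 2) and corilagin replicate 2 (0.064 with DMSO replicate 1). With the GC trend removed, the same-numbered correlations were 0.075, 0.027 and 0.102. With the replicate block, 0 SR genes were lower. In that fit 2 hnRNP genes, 26 pathway genes and 1 core factor (SF3B1, 0 core factors without the block) were higher. Over all genes tested, 15.7% were higher and 13.5% lower with the block. With block and GC trend removed together, 7 SR genes were lower, and 5 hnRNP genes were higher and 8 lower. Of the pathway genes, 38 were higher and 35 lower. Over all genes tested, 26.7% were higher and 18.1% lower in this last fit.

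Directions turned as follows (log2 change). With the GC trend removed, with or without the replicate block: HNRNPC -0.11, HNRNPH3 -0.12, SRSF3 -0.21, HNRNPA2B1 -0.27, SRSF6 -0.0091, HNRNPR -0.13, TRA2B -0.20, HNRNPLL -0.22, HNRNPDL -0.13, U2AF1 -0.041, HNRNPK -0.16, HNRNPA3 -0.33 and SRSF10 -0.070. With the library mean also removed: HNRNPC -0.16, HNRNPH3 -0.17, SRSF5 -0.0080, SRSF3 -0.26, HNRNPA2B1 -0.32, SRSF6 -0.060, HNRNPR -0.18, TRA2B -0.26, HNRNPLL -0.27, HNRNPDL -0.18, U2AF1 -0.092, HNRNPK -0.21, HNRNPA3 -0.38 and SRSF10 -0.12. Against DMSO replicate 3 alone: U2AF2 0.0073, HNRNPH3 -0.081, SRSF3 -0.075, SRSF11 -0.11, HNRNPA2B1 -0.24, HNRNPR -0.13, TRA2B -0.19, HNRNPLL -0.012, HNRNPDL -0.24, U2AF1 -0.12, HNRNPK -0.041, HNRNPH1 -0.017, HNRNPA3 -0.25 and SRSF10 -0.12. With median-of-ratios factors: HNRNPC -0.022, HNRNPM -0.0047, HNRNPA2B1 -0.020, HNRNPDL -0.040, U2AF1 -0.023 and HNRNPA3 -0.033. With equal sums: SRSF7 0.084, SRSF4 0.11, HNRNPA1 0.044, HNRNPU 0.080 and SRSF8 0.035. With quantile normalization: SRSF7 0.052, HNRNPA1 0.033, HNRNPU 0.041 and U2AF1 -0.097. Leaving out 1 library, the range was -0.059 to 0.16 for HNRNPA2B1, -0.062 to 0.15 for HNRNPA3, -0.085 to 0.13 for HNRNPDL, -0.14 to 0.11 for HNRNPU, -0.031 to 0.027 for SRSF4, -0.084 to 0.061 for SRSF7, -0.036 to 0.18 for TRA2B and -0.092 to 0.072 for U2AF1. Depth limits mainly HNRNPA1L3, U2AF1 and SRSF8, with 196 to 486 fragments per library.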

Other observations

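Ratios of paralogs within a library compare genes whose sequence composition is alike or unlike. TRA2A and TRA2B have transcripts of nearly equal GC content (41.7 and 41.8%), and the ratio of TRA2A to TRA2B was 0.875, 0.789 and 0.845 in the corilagin libraries, against 0.674, 0.681 and 0.720 in the DMSO libraries. All corilagin ratios were above all DMSO ratios. The ratio of HNRNPH2 to HNRNPH1 (GC content 42.1 and 45.5%) was 0.348, 0.342 and 0.354 with corilagin, against 0.332, 0.293 and 0.317 with DMSO. The ratio of PTBP3 to PTBP1, whose GC contents are far apart (37.7 and 59.5%), was 1.26, 1.24 and 1.23 with corilagin, against 0.446, 0.478 and 1.10 with DMSO, so that DMSO replicate 3 stood with the corilagin libraries. The ratios of HNRNPA1 to HNRNPA2B1 and of U2AF1 to U2AF2 overlapped between groups. SRSF1 and HNRNPA1 belong to different families, and both levels are uncertain through shared sequence, as given above. Their ratio was 0.0620, 0.0626 and 0.0620 with corilagin, against 0.0722, 0.0639 and 0.0750 with DMSO. It was lower in every corilagin library than in every DMSO library, but DMSO replicate 2 lay close to the corilagin values. Among single genes tested, 48.3% had groups that did not overlap, and the share among ratios of other gene pairs was not determined. With 3 libraries a group these ratios were not tested.

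HNRNPL varied within both groups, with 46.1, 38.5 and 33.0 FPKM in the corilagin libraries, against 42.9, 61.8 and 40.1 FPKM in the DMSO libraries, and 24.9% of the 100-base windows of its transcript also occur in other genes, most in AC008982.1.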
